A study of Homo sapiens with 4 samples.

Results

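Cytochrome P450 genes encode heme enzymes that add oxygen to drugs, fatty acids, sterols and vitamins. The members were chosen by name, as the protein-coding genes of RefSeq (GRCh38.p14) whose symbols start with CYP and a digit. That gave 56 of 20033 protein-coding genes with a position on chromosomes 1 to 22, X and Y. By family they fell into 24 genes of CYP1 to CYP3, 12 genes of CYP4, 16 genes of sterol, steroid, bile acid and vitamin D metabolism, and 4 other genes (CYP20A1 and the CYP26 family). CHAF1A, part of the CAF-1 complex that deposits histones on new DNA, was mapped by CUT&Tag, in which an antibody brings a transposase to its target so that sequenced fragments pile up there. The cells were RBE, an established human line of intrahepatic cholangiocarcinoma, a cancer of the bile ducts within the liver. Of 4 samples, 2 were transfected with control siRNA and 2 with siRNA to knock down CHAF1A, and all were collected 48 hours later.

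The data are 2 peak lists, 1 for each group. From its name, NC was taken to be the control list and si the siRNA list; the names match the sample titles only in part. Whether a list pools both samples of its group or stands for 1 of them is not stated. With 1 list per group, no difference between the lists has a replicate check, and no test between the conditions was made. The control list held 76313 peaks and the siRNA list 97653. The commonest background behind a peak was 6.34 reads in the control list and 8.49 in the siRNA list, a ratio of 1.34, and read totals were not used here. A peak marks where signal passed the authors' threshold. Whether it stands for CHAF1A binding or for chromatin that the transposase enters easily cannot be told apart here. The lists hold no RNA, so the knockdown was not checked and the cell type could be compared with its markers only through peaks. Of 6 cholangiocyte markers, 5 had a control and 4 a siRNA peak at an end, with none at CFTR, and of 6 hepatocyte markers 2 and 3 had one. Since 61.1% and 64.3% of all protein-coding genes had such a peak, these counts do not establish the cell type.

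In the liver, enzymes of families CYP1 to CYP3 oxidise drugs and other foreign compounds, and many are made there in large amounts and induced through nuclear receptors or the aryl hydrocarbon receptor. The CYP4 family oxidises the ends of fatty acid chains. The remaining families make and break down cholesterol, bile acids, steroid hormones, vitamin D and retinoic acid, and several belong to single organs such as the adrenal gland or the brain. All of them need electrons, which POR delivers in the endoplasmic reticulum and ferredoxin in mitochondria.

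The promoters below show the range of sequence on which peaks were or were not found. RefSeq promoter windows (GRCh38.p14, 250 bases before to 50 after the start site) matched 40 of the 56 members. The start site used was the gene boundary except at CYP51A1 (326 bp away), CYP4F3 (415), CYP4Z1 (11706), CYP19A1 (20099) and CYP2J2 (42439). Each line gives the 250 bases before the start site, 5′ to 3′ on the gene's own strand, with CpG dinucleotides in capitals. CYP2R1 (chr11:14892444-14892693, minus strand), CYP51A1 (chr7:92134478-92134727, minus strand) and CYP3A5 (chr7:99679997-99680246, minus strand) had the strongest control peaks among the matched members with a peak over the window. CYP2B6 (chr19:40991032-40991281, plus strand) had a promoter peak in the control list only and CYP3A7 (chr7:99735197-99735446, minus strand) in the siRNA list only. CYP2C8 (chr10:95069498-95069747, minus strand) had no peak at its ends or inside, in either list.
CYP2R1: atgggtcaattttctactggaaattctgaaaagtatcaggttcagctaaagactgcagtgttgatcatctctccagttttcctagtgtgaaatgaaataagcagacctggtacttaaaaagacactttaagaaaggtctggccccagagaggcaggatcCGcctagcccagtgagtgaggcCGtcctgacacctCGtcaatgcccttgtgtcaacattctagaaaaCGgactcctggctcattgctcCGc
CYP51A1: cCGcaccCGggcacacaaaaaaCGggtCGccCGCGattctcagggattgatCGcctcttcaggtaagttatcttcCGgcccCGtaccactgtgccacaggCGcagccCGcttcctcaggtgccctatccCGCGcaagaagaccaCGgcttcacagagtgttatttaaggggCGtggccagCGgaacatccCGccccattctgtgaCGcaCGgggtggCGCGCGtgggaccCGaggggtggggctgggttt
CYP3A5: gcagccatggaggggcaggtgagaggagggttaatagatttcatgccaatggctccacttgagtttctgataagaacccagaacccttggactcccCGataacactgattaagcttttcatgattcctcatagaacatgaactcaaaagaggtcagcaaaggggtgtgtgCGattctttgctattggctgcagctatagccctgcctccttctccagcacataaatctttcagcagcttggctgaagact
CYP2B6: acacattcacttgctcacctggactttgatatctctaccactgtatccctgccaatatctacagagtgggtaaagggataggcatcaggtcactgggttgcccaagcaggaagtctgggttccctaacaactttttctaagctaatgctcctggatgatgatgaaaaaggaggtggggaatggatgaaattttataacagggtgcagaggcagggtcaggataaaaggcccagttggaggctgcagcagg
CYP3A7: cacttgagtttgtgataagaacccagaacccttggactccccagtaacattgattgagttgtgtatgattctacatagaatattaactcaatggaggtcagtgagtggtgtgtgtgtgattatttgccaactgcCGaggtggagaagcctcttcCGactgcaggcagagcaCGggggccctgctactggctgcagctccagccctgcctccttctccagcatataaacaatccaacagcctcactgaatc
CYP2C8: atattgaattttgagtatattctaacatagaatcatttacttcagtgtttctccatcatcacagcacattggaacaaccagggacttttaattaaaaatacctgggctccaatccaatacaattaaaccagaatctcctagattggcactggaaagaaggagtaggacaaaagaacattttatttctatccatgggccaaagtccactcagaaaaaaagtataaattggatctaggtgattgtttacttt

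These 6 sequences held 5 CpG in CYP2R1, 23 in CYP51A1, 2 in CYP3A5, 0 in CYP2B6, 3 in CYP3A7 and 0 in CYP2C8. All 250 bases of CYP51A1 and of CYP3A5 lay under peaks of both lists. At CYP2R1 the control peak covered the 90 bases nearest the start site and the siRNA peak 85. The control peak of CYP2B6 covered 183 of its bases and the siRNA peak of CYP3A7 covered 203. A TATA box (TATAAA) began 29 bases before the start site of CYP3A7 and 31 bases before that of CYP2C8. The sequences of CYP3A5 and CYP3A7 shared a run of 30 identical bases, and those of the other pairs at most 9. A read lying within such a shared stretch could match either gene, which was not tested. CYP2A6, CYP2A7 and CYP2A13 are also close copies of one another, so their peaks are uncertain in the same way. How such reads were placed is not stated in these sources.

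Fewer of the P450 genes than of all protein-coding genes had a peak within 1 kb of either end. A peak was found at 20 of the 56 in the control list (35.7%, 95% exact binomial interval 23.4 to 49.6), against 61.1% of all protein-coding genes. In the siRNA list it was 26 of 56 (46.4%, 33.0 to 60.3), against 64.3%. Of the members, 17 had a peak in both lists (56.2% of all protein-coding genes did), 3 in the control list alone (4.9%) and 9 in the siRNA list alone (8.07%), while 27 had none (30.8%). These intervals treat genes as independent and cover counting error only. The plot of shares by family sets the groups side by side.

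**Figure D1:**
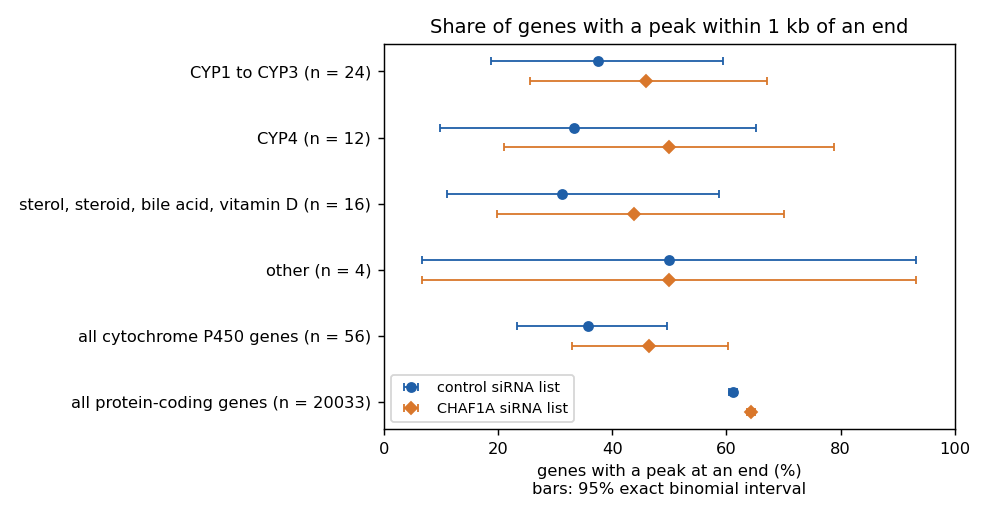
Percentage of genes with a peak within 1 kb of either gene boundary, for the 4 P450 groups, all 56 members and all 20033 protein-coding genes; circles are the control list, diamonds the siRNA list and bars 95% exact binomial intervals. The 56 members lie at 35.7% and 46.4% and all protein-coding genes at 61.1% and 64.3%, while the intervals of the 4 P450 groups overlap one another.

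The intervals of the 4 groups overlapped. Among control peaks, 9 of 24 genes of CYP1 to CYP3, 4 of 12 of CYP4, 5 of 16 of the sterol and vitamin D group and 2 of 4 others had a peak at an end. In the siRNA list these counts were 11, 6, 7 and 2. With equal numbers of peaks per list, the members with a peak numbered 20 (control) and 22 (siRNA), and those found only after CHAF1A siRNA numbered 6 in place of 9. The shares of all protein-coding genes were then 61.1%, 61.2% and 6.25%. Where siRNA pileups and backgrounds were scaled to the control background, the siRNA list kept 24 members (42.9%), against 63.7% of all protein-coding genes.

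The order of the lists and the distance to other genes depended on the width of the window. With a peak required over the boundary itself, 14 members (25%) had a control and 12 (21.4%) a siRNA peak, against 42.6% of all protein-coding genes for either list. Then 4 members had only the control peak (5.44% of all protein-coding genes did) and 2 only the siRNA peak (5.36%). Within 3 kb of an end, 39 members (69.6%) had a control peak and 40 (71.4%) a siRNA peak, against 71.6% and 75.2% of all protein-coding genes. In the control list 19 members had their nearest peak between 1 and 3 kb from a boundary, with the summit inside the gene in 13 and outside in 6. In the siRNA list there were 14 such members, 7 inside and 7 outside. Those just within 1 kb were CYP26C1, whose control peak (fold enrichment 3.13) began 974 bp past its upper boundary, and CYP1A2, whose siRNA peak (2.60) began 902 bp inside. Those just beyond were CYP11B2, whose control peak (2.99) was 1023 bp from its lower boundary, and CYP4A11, whose siRNA peak (3.37) was 1060 bp from its upper boundary.

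The median end peak of a P450 gene was also lower than that of all genes. Fold enrichment is the authors' ratio of the pileup to the background at the summit, and −log10 q their measure of how far the pileup exceeds that background. Both depend on the depth of a list, so values of the lists stand side by side below and are not read as a change. The strongest end peak of a member, by −log10 q, had a median fold enrichment of 4.70 in the control list (20 genes), against 5.44 over all 12238 genes with such a peak. The siRNA medians were 3.44 (26 genes) and 4.43 (12872 genes). The median −log10 q was 13.9 for the members and 28.6 for all genes in the control list, and 11.9 and 24.0 in the siRNA list. Of the members, 6 of 20 in the control list and 7 of 26 in the siRNA list exceeded the median −log10 q of all genes.

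**Figure D2:**
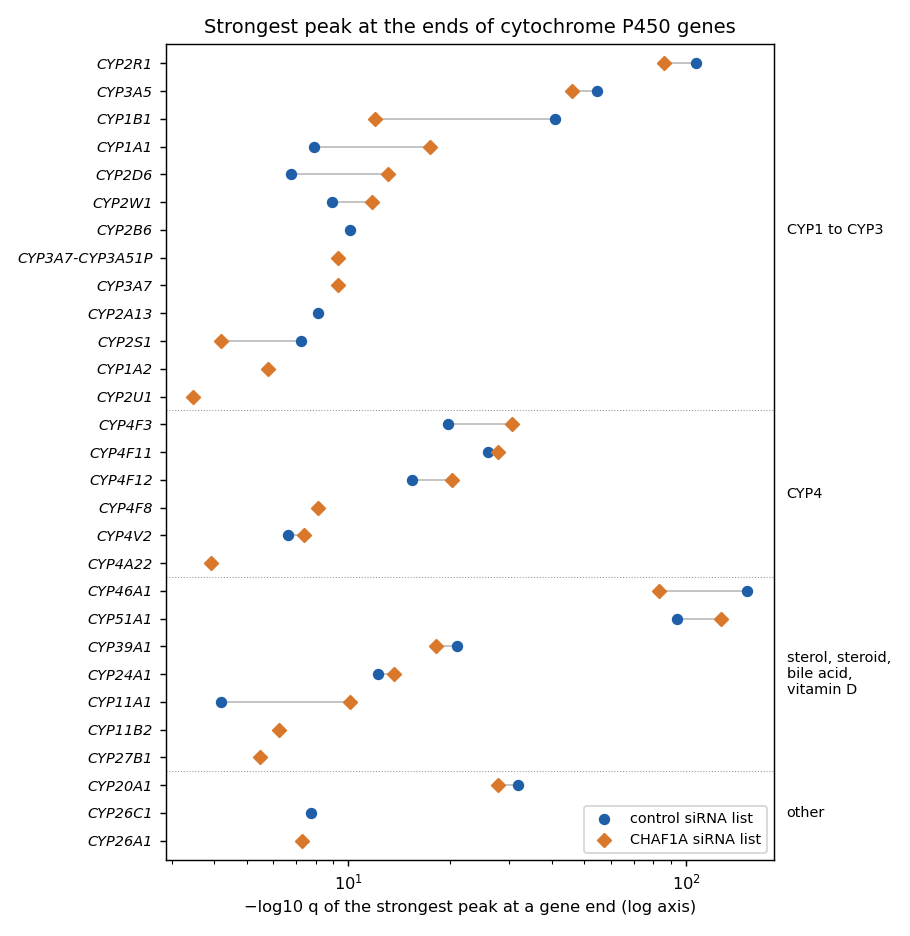
The −log10 q (log axis) of the strongest peak within 1 kb of an end, for the 29 members with such a peak in either list, ordered by group; circles are the control list, diamonds the siRNA list, and a grey line joins the values of a gene found in both. CYP46A1, CYP2R1, CYP51A1 and CYP3A5 lead both lists, from 45.9 to 151, and the 12 members found in 1 list only have values of 10.2 or less.

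CYP2R1, which makes the circulating form of vitamin D, had the strongest peak of the CYP1 to CYP3 families. Its control peak (chromosome 11, 14891357 to 14892533) reached a fold enrichment of 10.2 (−log10 q 107), from a pileup of 169 reads over a background of 15.6. The siRNA peak (14891297 to 14892528) reached 8.17 (−log10 q 86.0), from 159 reads over 18.6. The summits lay 173 and 179 bp downstream of the 5′ boundary, 6 bp apart. A stronger end peak was present at 12.4% of all genes with an end peak in the control list and at 14.5% in the siRNA list.

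CYP3A5, a drug-metabolising enzyme of liver and gut, had the next highest −log10 q of these families. The control list held 1 broad peak at its 5′ end (chromosome 7, 99678958 to 99680294; fold enrichment 6.61, −log10 q 54.6). After CHAF1A siRNA, 2 peaks lay over the same stretch, at 99678958 to 99679563 (fold enrichment 5.16) and 99679915 to 99680563 (3.86). Further into the gene a weaker peak was shared, with summits 1856 and 1828 bp from the 5′ boundary. Of its neighbours, CYP3A4, the main drug-oxidising enzyme of adult liver, had no end peak and 2 inside peaks among the siRNA peaks only, the stronger at 4.81 (−log10 q 16.6). CYP3A7, the fetal liver form, had a 5′ peak in the siRNA list only (99735244 to 99735842, fold enrichment 3.45, −log10 q 9.30). The read-through gene CYP3A7-CYP3A51P starts at the same site and shares this peak, so that 1 peak counts for both members. CYP3A43 had a strong shared peak inside the gene (99860198 to 99860935 in the control list, fold enrichment 7.46, and 99859938 to 99860935 in the siRNA list, 6.47), with summits 1 bp apart.

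The CYP1 genes are the classical targets of the aryl hydrocarbon receptor. CYP1A1 and CYP1B1 had a control end peak and all 3 a siRNA end peak, beside 61.1% and 64.3% of all protein-coding genes. CYP1B1 had the strongest control peak of them, at its upper boundary (chromosome 2, 38076149 to 38077281; fold enrichment 5.86, −log10 q 41.0, 99 reads over 16.1). The siRNA peak at the same place (38076190 to 38077253) reached 3.43 (−log10 q 12.0), from 54 reads over 15.1, with its summit 544 bp from the control summit. CYP1B1 had fewer reads at the siRNA summit, while the commonest background was higher in that list. The 2 summits differ in position, and there are no replicates or read totals, so this is not read as a change. In bulk cells, the number of cells with signal and the signal per cell cannot be told apart. CYP1A1 had a 5′ peak in both lists (chromosome 15), with a summit pileup of 44 reads in the control list (fold enrichment 3.00) and 81 in the siRNA list (3.34). A weaker peak inside CYP1A1 was also shared, with summits 3 bp apart. Between the lists, the fold enrichments of CYP1A1 and CYP1B1 were in opposite order. CYP1A2, the neighbour of CYP1A1, had an end peak in the siRNA list only (fold enrichment 2.60), and 2 peaks inside the gene that were in both lists.

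Other members of the CYP2 family had weak peaks or none. CYP2D6, which oxidises many antidepressants and opioids, had a peak past its upper boundary in both lists (chromosome 22; fold enrichment, control 2.86 and siRNA 2.94), with summits 248 and 193 bp outside the gene. It has a near-identical pseudogene neighbour, so its reads are uncertain. CYP2W1 had low fold enrichments (control peaks up to 2.35, siRNA peaks up to 2.26) over the highest backgrounds of any end peak, 33.0 and 48.9 reads. These peaks lay at its 3′ end, with summits 933 and 969 bp inside the gene, and a 5′ peak (2.22) was in the control list only. CYP2S1 had a control peak at its 3′ end (3.14) and a siRNA peak 8 bp upstream of its 5′ boundary (2.34), which did not overlap. CYP2U1 had a siRNA peak only, with the lowest −log10 q of any end peak (3.47, fold enrichment 2.64).

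CYP2B6 and CYP2A13 had a 5′ peak in the control list only. CYP2B6, an enzyme induced by phenobarbital, had a peak with a summit 22 bp downstream of its 5′ boundary (chromosome 19, 40991099 to 40991461; fold enrichment 4.37, −log10 q 10.2, 32 reads over 6.55). A second control-only peak lay inside the gene (41000339 to 41000559, fold enrichment 5.99). CYP2A13, an airway enzyme, had a fold enrichment of 3.63 with a summit 125 bp upstream. The strongest site of this cluster of 6 CYP2 genes lay between CYP2A7 and CYP2B6. The control peak, at 40920693 to 40921803, had a fold enrichment of 10.4 (−log10 q 169). The siRNA peak, at 40920949 to 40921901, had one of 6.51 (53.1). No gene of the annotation has an end within 1 kb of this site. CYP2A6, the nicotine oxidase, had no peak within 1 kb or inside, but a siRNA peak (fold enrichment 4.61, −log10 q 22.5) began 1470 bp above its upper boundary and a control peak (3.59) 1566 bp above.

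The CYP2C cluster on chromosome 10, with CYP2C8, CYP2C18 and CYP2C19 among its genes, had no end peak in either list. Over its 386 kb there were 6 peaks in each list, or 1.56 per 100 kb, against 2.47 and 3.16 over the chromosomes as a whole. The CYP3A cluster, by contrast, had 13 control peaks (5.97 per 100 kb) and 21 siRNA peaks (9.64). CYP2C19, which activates clopidogrel, had a control peak inside the gene (fold enrichment 4.09, −log10 q 8.49) that was not in the siRNA list. CYP2E1, the ethanol-oxidising enzyme, had inside peaks in both lists that did not overlap (fold enrichment 4.18 and 2.61), as did CYP2F1. CYP2A7 had a siRNA peak inside the gene (3.21), and CYP2J2, which makes epoxides from arachidonic acid, had no peak.

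In the CYP4 family, most end peaks were at the CYP4F genes of chromosome 19. Of these 6 genes, 3 had an end peak in the control list and 4 in the siRNA list, beside 61.1% and 64.3% of all protein-coding genes. CYP4F11, an enzyme of long-chain fatty acids, had the same summit in both lists, 40 bp upstream of its 5′ boundary, with 59 reads over 8.81 in the control list (fold enrichment 6.12) and 68 over 11.1 in the siRNA list (5.70). CYP4F3, which inactivates leukotrienes in white blood cells, had summits 62 and 63 bp upstream, with fold enrichments of 5.23 and 5.71. CYP4F12 had a peak at its lower boundary in both lists (5.04 and 4.61). CYP4F8 had a siRNA peak only (3.33), with a summit 113 bp downstream. CYP4F2, which oxidises vitamins E and K, had no peak, and CYP4F22, a skin ceramide enzyme, had 1 siRNA peak inside the gene (3.22).

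CYP4V2, the gene of an inherited retinal dystrophy, had a peak in both lists at its 5′ end, but they did not overlap, with summits 163 bp upstream in the control list (fold enrichment 3.68) and 343 bp downstream in the siRNA list (3.48). The 5 CYP4 genes of chromosome 1 had a single end peak, that of CYP4A22 in the siRNA list (2.70, −log10 q 3.92). CYP4A11, CYP4X1 and CYP4Z1 had peaks inside the gene in both lists, and CYP4B1 in the control list only (3.88). Of these, a peak of CYP4Z1 was shared (control 5.10, siRNA 4.53), and none of CYP4A11 or CYP4X1. CYP4A22 also had a shared inside peak (3.84 and 3.34).

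**Figure D3:**
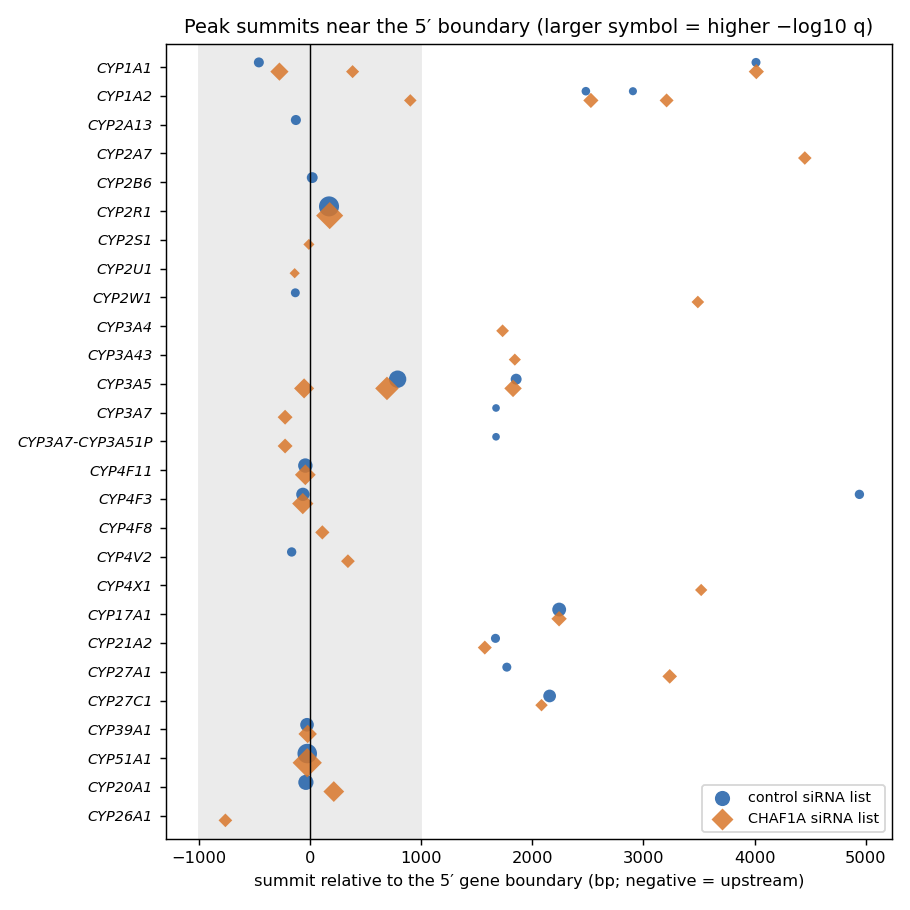
Distance of each peak summit from the 5′ gene boundary (bp, negative upstream) for members with known strand; circles are the control list, diamonds the siRNA list, symbol size rises with −log10 q and the grey band is the window of 1 kb. Summits of CYP51A1, CYP4F11, CYP4F3 and CYP39A1 lie within 63 bp upstream of the boundary in both lists, and the shared inside peaks of CYP17A1, CYP27C1 and CYP1A2 have summits from 2084 to 3209 bp downstream.

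CYP51A1, the lanosterol demethylase of cholesterol synthesis, had the highest −log10 q of all members in the siRNA list, although the fold enrichment of CYP2R1 was higher. Its control peak (chromosome 7, 92133708 to 92135205) reached 8.24-fold enrichment (−log10 q 94.0), from 173 reads over 20.1. The siRNA peak (92133623 to 92135462) reached 7.53 (127), from 251 reads over 32.5. The summit lay at the same base in both lists, 23 bp upstream of the gene boundary, where the antisense gene CYP51A1-AS1 also has an end within 1 kb. A stronger end peak was present at 14.9% of all genes with an end peak in the control list and at 8.86% in the siRNA list.

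CYP46A1, the brain enzyme that hydroxylates cholesterol for its removal, had the highest −log10 q of the P450 genes in the control list, while CYP2R1 had the highest fold enrichment. It lay at the lower boundary (chromosome 14, 99683730 to 99684502), with 257 reads over 26.7 (fold enrichment 9.30, −log10 q 151). The siRNA peak (99683625 to 99684539) had 187 reads over 28.4 (6.40, 82.9), and the summits were 4 bp apart. Inside the gene 2 weaker peaks were shared. Here, as at CYP2R1, the siRNA peak had a lower pileup over a higher background than the control peak, and at CYP1B1 both were lower. At all the others of the 17 members with an end peak in both lists, the strongest siRNA peak had the higher pileup. The commonest background was also higher in the siRNA list, at a ratio of 1.34. At CYP2S1 and CYP4V2 the peaks compared did not overlap. The same count was not made over all genes, so these 3 members are not read as exceptional. CYP39A1, which hydroxylates oxysterols, had summits 25 and 19 bp upstream of its 5′ boundary (chromosome 6; fold enrichment 5.78 and 4.94). This peak also lies within 1 kb of an end of the protein-coding gene SLC25A27.

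Among the genes of vitamin D, CYP24A1, which breaks down the active hormone, had 2 peaks near its upper boundary in each list (chromosome 20; fold enrichment 3.82 and 3.46 in the control list, 3.78 and 3.29 after CHAF1A siRNA). A stronger shared peak lay inside the gene, with summits 8 bp apart (6.61 and 4.81). CYP27B1, which makes the active hormone, had a weak siRNA peak near its upper boundary (2.03), the lowest fold enrichment of any end peak, and a control peak inside the gene (2.90). CYP2R1, described above, thus had the strongest end peak of these 3 vitamin D enzymes.

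Among the genes of bile acid and steroid synthesis in this paragraph, only CYP11A1 and CYP11B2 had an end peak. CYP39A1, described above, acts on oxysterols like CYP7B1 and had a 5′ peak in both lists. Of all 16 genes of the sterol and vitamin D group, 5 had a control and 7 a siRNA end peak. Those shares were 31.25% and 43.75%, against 61.1% and 64.3% of all protein-coding genes. CYP7A1, the rate-limiting enzyme of bile acid synthesis, had no peak at an end or inside in either list. CYP7B1, which acts on oxysterols, had peaks inside the gene only, of which 3 were shared. At the strongest control site (6.51) the siRNA peak had 4.11, with summits 29 bp apart. CYP27A1, the mitochondrial sterol hydroxylase, had inside peaks that did not overlap (3.54 and 3.70), and CYP8B1, which directs synthesis to cholic acid, had a control peak inside (3.42). CYP11A1, which starts steroid synthesis from cholesterol, had a shared peak at its 3′ end (2.54 and 3.03) and none at its 5′ end. The aldosterone synthase gene CYP11B2 had an end peak in the siRNA list only (2.45), and CYP11B1, which makes cortisol, had peaks inside the gene that did not overlap.

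CYP17A1, an enzyme of sex steroid synthesis, had a shared peak inside the gene, near an end of its antisense gene CYP17A1-AS1, with summits 2243 and 2242 bp from its 5′ boundary (fold enrichment 4.95 and 3.03; −log10 q 22.3 and 10.3). CYP19A1, the aromatase, had no end peak and a shared inside peak (4.15 and 3.37). CYP27C1, a retinoid desaturase, had a shared peak 2157 and 2084 bp downstream of its 5′ boundary (4.98 and 3.01). It had 3 further siRNA peaks inside the gene, of up to 4.64. CYP21A2, which makes cortisol and aldosterone precursors, had a shared inside peak (2.71 and 2.50) close to an end of TNXB, and its pseudogene copy makes its reads uncertain.

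CYP20A1, an orphan enzyme found in many tissues, had a 5′ peak in both lists (chromosome 2; control 203238768 to 203239443, siRNA 203238768 to 203239756; fold enrichment 6.59 and 5.41). The CYP26 enzymes break down retinoic acid and had 1 peak each at an end or inside. CYP26A1 had a siRNA peak 759 bp upstream of its 5′ boundary (2.73), CYP26C1 a control peak near its 3′ end (3.13) and CYP26B1 a control peak inside the gene (2.43). None of these 3 peaks was in the other list.

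Many of these peaks were weak. At the 24 distinct control peaks at member ends, the median fold enrichment was 3.75 and the median background 12.0 reads, and at the 28 distinct siRNA peaks 3.38 and 15.6 reads. Of these peaks, 16 of 24 (66.7%, 44.7 to 84.4) in the control list overlapped a siRNA peak by at least 1 bp, and 17 of 28 (60.7%, 40.6 to 78.5) in the siRNA list overlapped a control peak. Over all protein-coding genes the shares were 83.6% and 74.3%.

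**Figure D4:**
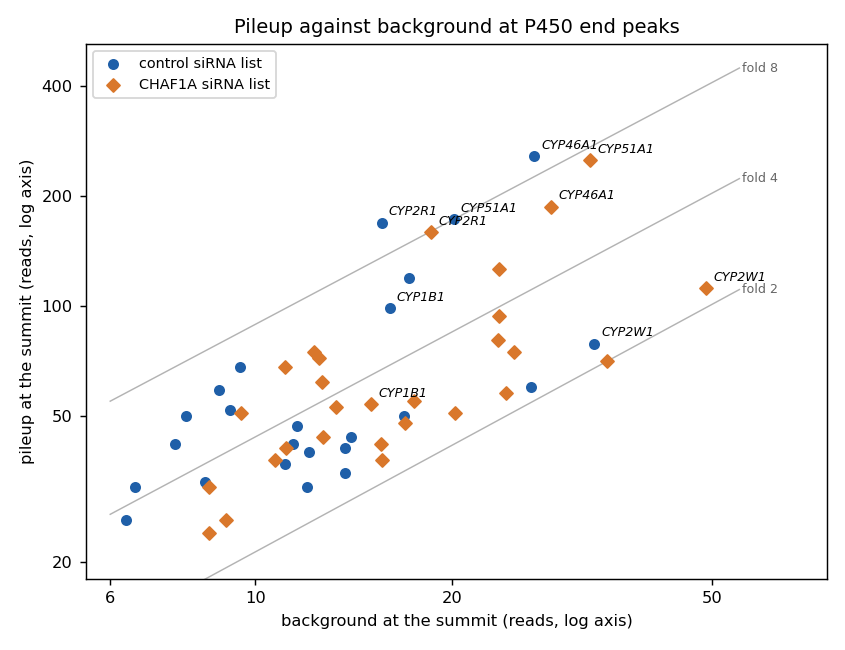
Pileup against background at the summit, in reads on log axes, for the distinct peaks at member ends; circles are the control list, diamonds the siRNA list and grey lines mark fold enrichments of 2, 4 and 8. CYP2R1, CYP51A1 and CYP46A1 stand at 159 to 257 reads, and CYP2W1 lies near the line of 2 over the highest backgrounds. Of the members with an end peak in both lists, only CYP1B1, CYP2R1 and CYP46A1 have a lower pileup at the strongest siRNA peak. This was not counted over all genes.

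In the 17 members with an end peak in both lists, the strongest peaks of the 2 lists overlapped in 15 (88.2%), against 91.3% over all 11256 such genes. The exceptions were CYP2S1 and CYP4V2. The fold enrichment was higher in the control list in 13 of 17 (76.5%), against 79.4% over all such genes. The members therefore lay close to other genes in both respects. At all shared member peaks, inside peaks included, the summits were within 50 bp of each other in 19 of 37 control peaks.

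Inside the genes, away from the ends, peaks were about as frequent as elsewhere. In the control list 31 of 56 members (55.4%) had an inside peak, against 49.5% of all protein-coding genes, and in the siRNA list 32 (57.1%), against 56%. Per 100 kb of gene, away from the ends, there were 2.91 control and 3.80 siRNA peaks in the members, and to 2.59 and 3.47 in all genes. Of the 27 members with no end peak, 13 had inside peaks in both lists, 5 had control inside peaks alone and 3 had siRNA inside peaks alone. No peak at all was found at CYP2A6, CYP2C8, CYP2C18, CYP2J2, CYP4F2 and CYP7A1.

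The promoters of the members were poor in CpG. CYP3A7 and its read-through gene share 1 promoter window, which counts for both members in the promoter and motif counts below. Over the 40 matched members the median was 4.5 CpG in 300 bases, against 22 over 15841 protein-coding genes. Of the 40, 20 had fewer than 5 CpG (50%, against 16.6% of all), and 11 had 15 or more (27.5%, against 65.3%). A control peak lay over 11 of the 40 promoters (27.5%, against 51.3% of all), and a siRNA peak over 13 (32.5%, against 52%).

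Within classes of CpG content the members did not all lie below other genes. With fewer than 5 CpG, 3 of 20 members had a control peak over the promoter (15%, 3.21 to 37.9), against 6.29% of all genes, and 5 of 20 a siRNA peak (25.0%, 8.66 to 49.1), against 9.15%. CYP3A5 had one in both lists. CYP2A13 and CYP2B6 had one among control peaks only, and CYP3A7, its read-through gene, CYP4F3 and CYP4F8 among siRNA peaks only. The window of CYP4F3 lies inside the gene, with its start site 415 bp from the gene boundary. Its 5′ peak was in both lists, and only the siRNA peak reached into the window. With 5 to 14 CpG, 4 of 9 members had a control peak (44.4%, 13.7 to 78.8), against 27.8%, and 3 of 9 a siRNA peak (33.3%, 7.49 to 70.1), against 31.5%. With 15 or more CpG, 4 of 11 members had a control peak (36.4%, 10.9 to 69.2), against 69.3%, and 5 of 11 a siRNA peak (45.5%, 16.7 to 76.6), against 68.5%. In this class CYP20A1, CYP39A1 and CYP51A1 had a promoter peak in both lists, while CYP26B1, CYP26C1, CYP27A1, CYP2J2 and CYP4F22 had none.

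**Figure D5:**
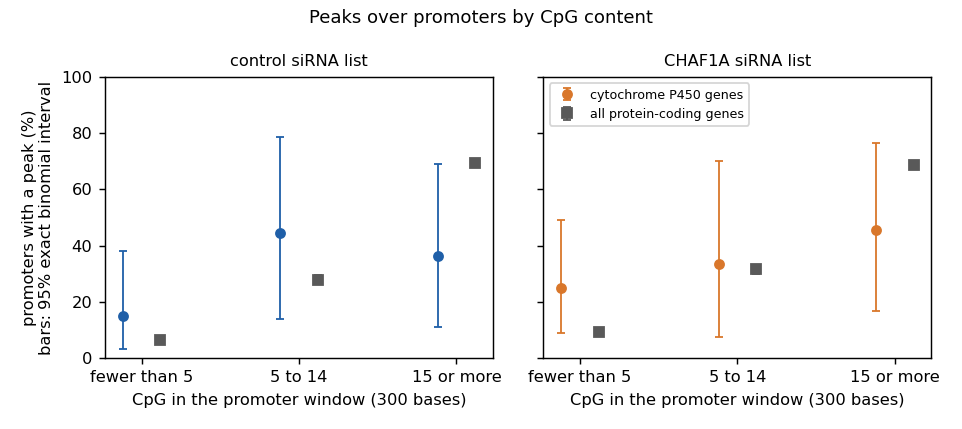
Percentage of promoter windows of 300 bases with a peak, by number of CpG in the window, in the control list (left) and the siRNA list (right); circles are P450 genes, squares all protein-coding genes, and bars 95% exact binomial intervals. Among all genes the control share rises from 6.29% to 69.3% with CpG content, and the P450 genes stand at 15%, 44.4% and 36.4% from the lowest class to the highest, with wide intervals.

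Motifs were searched on both strands of the 300 bases, and none of the 5 contains another. TATAAA, the TATA box, was in 15 of 40 members (37.5%), against 9.75% of all 15841 promoters, and AGGTCA, a half-site of nuclear receptors, in 13 (32.5%), against 11.8%. GGGCGG, the GC box, was in 15 (37.5%), against 58.3%. GCGTG, the core of the element of the aryl hydrocarbon receptor, was in 11 (27.5%), against 44.1%, among them CYP1A1. CCAAT was in 18 (45.0%), against 36.4%. Of the 15 members with TATAAA, 3 had a control and 3 a siRNA peak over the promoter, and of the 25 without it, 8 and 10. For GCGTG these counts were 5 and 4 of 11 with it, and 6 and 9 of 29 without. For CCAAT they were 6 and 7 of 18, and 5 and 6 of 22. For GGGCGG they were 5 and 7 of 15, and 6 and 6 of 25. For AGGTCA they were 3 and 4 of 13, and 8 and 9 of 27. The split was not made over all promoters, so it is not read as a trait of the members. A match describes the letters only.

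All 11 electron transfer and heme partners had an end peak in both lists, beside 56.2% of all protein-coding genes and 17 of the 56 enzymes. Their median fold enrichment was 6.26 (control) and 4.12 (siRNA), against 5.44 and 4.43 over all protein-coding genes with an end peak. It was thus above that of all genes in the control list only. POR, the reductase of the microsomal enzymes, had 8.25 and 5.89. FDXR, the reductase of the mitochondrial enzymes, had 10.7 and 8.39, and CYB5B, a cytochrome b5, 11.2 and 10.8. Among 19 genes of cholesterol synthesis around CYP51A1, 18 had a peak in each list and 17 in both. Their median fold enrichments were 7.25 and 5.75, against the same 5.44 and 4.43 over all genes. CYP51A1, at 8.24 and 7.53, lay above both medians of these 19 genes. HMGCS1 had 11.2 and 9.74, and LSS, which makes the substrate of CYP51A1, 10.6 and 9.34. SC5D had a control peak only and FDFT1 a siRNA peak only.

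Of 23 regulators of P450 genes, 18 had an end peak in the control list and 16 of these also in the siRNA list, where all protein-coding genes had 61.1% and, for both lists, 56.2%. AHR and its partner ARNT had fold enrichments of 10.6 and 10.2 in the control list and 9.14 and 8.59 in the siRNA list. The vitamin D receptor VDR had 6.69 and 4.75. The xenobiotic receptors NR1I2 and NR1I3, which induce CYP3A and CYP2B genes, had no end peak in either list, nor did PPARA, AHRR and SCAP. NR1H4, the bile acid receptor, and NR5A2 had a control peak only (3.56 and 2.96). TBXAS1 and PTGIS, P450 enzymes of prostanoid synthesis without a CYP symbol, had a peak in both lists (2.92 and 3.56 at TBXAS1, 3.91 and 3.27 at PTGIS). These lists are short and their genes were picked for their roles, so their counts are a description.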

How the data were processed

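CUT&Tag of CHAF1A in 4 samples (2 per group) is analysed from 2 deposited peak lists. The submitters' processing notes name the build hg38 and, with no roles, deepTools 3.4.3, MACS2 2.1.2, Bowtie2 2.2.5 and fastp 0.20.1. Pooling of samples, a background library and read totals are not stated in the sources used here. Fold enrichment is deposited by the authors as a linear ratio and the p and q of a peak on a −log10 scale. The deposited score equals 10 times −log10 p within 1 and was not used. The lowest −log10 p was 5.00 in each list. Outside chromosomes 1 to 22, X and Y lay 868 control and 886 siRNA peaks, which were left out. Pileup and background at a summit were solved from fold = (pileup + 1)/(background + 1) and the Poisson tail; 99.1% of control and 99.2% of siRNA peaks had a −log10 p under 290 and were solved, and 99.99% of these in each list gave whole pileups within 0.02 reads. On simulated data with known answers 100% of pileups were recovered. A peak was at an end if it overlapped by 1 bp the 1 kb on either side of a gene boundary in RefSeq GRCh38.p14. Strand came from the RefSeq promoter table, where the start nearest the gene boundary was used; 16 members (among them CYP1B1, CYP2C18, CYP2D6, CYP2F1, CYP4A11, CYP4A22, CYP4F12, CYP7A1, CYP7B1, CYP8B1, CYP11B1, CYP11B2, CYP24A1, CYP27B1, CYP46A1) are described by lower and upper boundary. Members are named with their strongest peaks at an end or inside; 1 member is not reported here by name. Alternatives were other thresholds, list lengths, windows and overlaps, and, chosen after seeing the data, scaling of the siRNA list to the control background; the classes of CpG content were also set then. Members and lists were chosen with earlier results of these data known. Intervals are 95% exact (Clopper-Pearson). The work used Python 3.11.15 with scipy 1.17.1, pandas 2.3.3, matplotlib 3.10.9 and numpy 2.4.6.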

Additional observations from a re-analysis of the deposited data

How the results depend on the processing

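With −log10 q of at least 5, with equal numbers of peaks, with the summit required inside the window and with siRNA values scaled to the control background, every count of members stayed within 1.5 times its value. With −log10 q of at least 10, 12 members had a control peak and 15 a siRNA peak, with 11 in both lists, 1 with only the control peak and 4 with only the siRNA peak; the control and siRNA shares of all genes were then 50.7% and 51.2%. Within 3 kb, 39 had a control and 40 a siRNA peak, 34 had both, 5 the control peak alone, and 29 of 51 control peaks were shared. Of all protein-coding genes, 71.6% then had a control peak, 75.2% a siRNA peak, 67.3% both and 4.34% the control peak alone. With a peak required over the boundary itself the order turned, with 14 control and 12 siRNA members. There were 10 with both, 4 with only the control peak and 2 with only the siRNA peak. The shares of all protein-coding genes were 42.6% for either list, 37.2% for both, 5.44% for control only and 5.36% for siRNA only. At the 5′ boundary, for the 40 members with strand, the control list had 12 members (30%), the siRNA list 16 (40%) and both lists 9 (22.5%). Over the 15841 protein-coding genes with strand, these shares were 58.7%, 61.2% and 54.2%. At the authors' threshold, every member found in 1 list only had a −log10 q of 10.2 or less there. No replicate could be left out, for the same reason that no pairing could be made. No paired analysis was possible because each group has 1 list, with no values per sample.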
